A study of Mus musculus with 6 samples.

Results

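The unfolded protein response and the integrated stress response are described here in colonic group 2 innate lymphoid cells (ILC2s) from mice with and without DSS colitis, through 34 genes grouped by their known roles. Of these, 23 encode the stress sensors, chaperones, isomerases and degradation factors of the endoplasmic reticulum (ER), and 11 belong to the branch governed by the transcription factor ATF4. All 34 had a row among the 23268 gene symbols measured. The values are FPKM, in which fragments are divided by the length of the gene and the depth of the library.

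ILC2s are tissue lymphocytes that secrete type 2 cytokines without an antigen receptor, and DSS (dextran sulfate sodium) in drinking water injures the colonic epithelium. The control group was C57BL/6 mice, aged 6 to 8 weeks, on water for 6 days, and the DSS group was such mice on 3% DSS for 6 days. RNA from the sorted colonic ILC2s was sequenced as full-length cDNA in 3 libraries a group. The labels name no transgene or deletion, and do not say whether a library came from 1 mouse or a pool, so p-values measure only how far these samples spread, and that spread may be technical.

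Unfolded proteins in the ER are sensed by IRE1α, PERK and ATF6. IRE1α splices the mRNA of XBP1, and XBP1 and cleaved ATF6 then switch on chaperones, protein translocation and ER-associated degradation. PERK, like the kinases that sense amino acid lack, haem lack or viral RNA, phosphorylates eIF2α, which lowers translation in general while raising that of ATF4, whose targets make and import amino acids and, through CHOP and GADD34, feed back on the response. Much of the control lies in splicing, cleavage and translation, which levels of whole transcripts do not measure. Secretory lymphocytes such as plasma cells are known for high expression of the ER genes.

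The libraries held 9962415 to 23119390 fragments. Those of replicate 3 stood apart in both groups, with a mean FPKM over 1103 olfactory receptor genes (neuronal genes with no known use in lymphocytes) of 0.583 in control replicate 3 and 0.962 in DSS replicate 3, against 0.0342 to 0.182 in the other 4. DSS replicate 1 was the lowest of the 6 libraries for 37.1% of the genes tested, and DSS replicate 3 the highest for 41.6%. All 14 ILC2 markers were detected, with summed FPKM of 3722 to 4053 in control and 2759 to 2994 in DSS libraries. Of the 14, 7 lay lower in every DSS library than in every control library, against 9.6% of all genes tested. Markers of other cells were also present. For the 9 of 14 plasma cell markers in the table the summed FPKM was 57.6 to 73.0 in control and 82.1 to 320.0 in DSS libraries, and for 13 neutrophil markers 6.24 to 12.5 and 82.7 to 142. For 13 colon epithelial markers it was 28.4 to 51.5 and 58.8 to 71.2, for 13 macrophage and monocyte markers 39.6 to 46.2 and 41.9 to 75.2, and for 10 goblet and secretory markers 9.24 to 15.5 and 16.8 to 25.5. For 8 T cell markers it was 23.3 to 33.5 and 21.8 to 62.7, and for 10 stromal and endothelial markers 23.7 to 42.0 and 15.3 to 39.3. A sum can rest on few markers. All DSS libraries lay above all controls for 4 of the 9 plasma cell, 4 of the 13 neutrophil and 4 of the 13 epithelial markers. So they did for 2 macrophage and monocyte, 1 goblet, 0 T cell and 0 stromal markers, against 6.35% of all genes tested. They lay below for 1 plasma cell and 1 stromal marker.

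The genes were chosen as ER chaperones and as targets of XBP1, ATF6 and ATF4, so promoter motifs for these factors follow in part from the choice and are given as a description. RefSeq promoters (GRCm38.p6, the 250 bases before the start) were matched for 30 of the 34 genes, and both strands were searched. The ER stress response element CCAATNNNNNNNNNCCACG, which joins an NF-Y site to a site for ATF6 and XBP1, was found before 7 of the 19 matched ER genes and 0 of the 11 ATF4 branch genes, against 0.13% of 27025 genes with a promoter. The sites are given 5′ to 3′ on the strand that carries the element, with its fixed letters in capitals, because they are the known regulatory sequence of the ER branch. Of the 7 genes, Hspa5, Hsp90b1, Calr, Canx and Pdia6 had a negative log2 change in DSS, and Dnajc3 and Creld2 a positive one.
Hspa5, chr2:34772025-34772043, + strand: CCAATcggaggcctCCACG
Hsp90b1, first of a pair, chr10:86705638-86705656, − strand: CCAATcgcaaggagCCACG
Hsp90b1, second of the pair, chr10:86705533-86705551, + strand: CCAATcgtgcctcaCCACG
Calr, chr8:84847075-84847093, + strand: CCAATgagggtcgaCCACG
Canx, chr11:50325800-50325818, − strand: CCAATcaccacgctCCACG
Pdia6, chr12:17266491-17266509, + strand: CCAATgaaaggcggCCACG
Dnajc3, chr14:118937827-118937845, + strand: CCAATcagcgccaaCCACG
Creld2, chr15:88819520-88819538, − strand: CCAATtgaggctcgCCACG
The element of Hspa5 began 65 bases before the RefSeq start of the gene, and those of the other genes began 98 to 212 bases before theirs. GENCODE M21, the source of the gene coordinates given with the values, starts Hspa5 upstream of this element, at base 34771970. With 50 bases after the RefSeq start added, the same 7 genes held it, against 0.137% of all genes.

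The other motifs were rarer among the 34 or commoner among all genes. The ER stress response element II, ATTGGNCCACG, was found before 1 ER gene, Herpud1, against 0.037% of all genes. The core of the C/EBP-ATF response element, TGATGNAA, to which ATF4 binds with a C/EBP partner, was found before 2 of the 11 ATF4 branch genes, Chac1 and Asns, and before Herpud1, against 3.91% of all genes. The core of the UPR element, TGACGTGG, was found before none of the 30, against 0.603%. The bare CCACG, which lies inside both ER stress response elements, was found before 13 of 19 ER genes and 6 of 11 ATF4 branch genes, against 31.0%. With 50 bases after the start added, Dnajb11 also held the ER stress response element II (2 of 19 ER genes, against 0.0444%), Trib3 also held the C/EBP-ATF core (3 of 11 ATF4 branch genes, against 4.51%), and CCACG was found in 15 of 19 and 8 of 11, against 35.5%. These sites follow, with the fixed letters of the first and the whole core of the others in capitals.
Herpud1, ER stress response element II, chr8:94386377-94386387, + strand: ATTGGgCCACG
Herpud1, C/EBP-ATF core, chr8:94386311-94386330, − strand: gcgggcTGATGCAAcccgcc
Chac1, C/EBP-ATF core, chr2:119351043-119351062, − strand: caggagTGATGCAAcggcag
Asns, C/EBP-ATF core, chr6:7693219-7693238, − strand: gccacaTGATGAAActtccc
GENCODE M21 starts Asns upstream of this match, at base 7693254 on the − strand. A match is a description of letters and not a measured site of binding. The absence of one says only that these letters are not in this window.

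None of the 34 genes passed the test between DSS and control. Transcripts of the folding machinery stayed abundant in both groups, and where the groups did not overlap DSS was the lower one. Of the 34, 33 had a mean FPKM of at least 1 and were tested, Chac1 being the exception. The test was limma on log2(FPKM + 1), adjusted by Benjamini-Hochberg over the 12187 genes tested, of which 0.0738% passed as higher and 0.148% as lower at an adjusted p under 0.05. Counts were also 0 by limma voom on the recovered fragments and by limma with the replicate number as a block. At an unadjusted p under 0.05, limma gave 0 of the 33 higher, against 3.57% of all genes tested, and 5 lower (Ern1, Sesn2, Phgdh, Psat1 and Mthfd2), against 5.42%. No gene of the 33 had every DSS library above every control library, against 6.35% of all genes tested. In 9 of the 33 the DSS libraries all lay below the controls, against 9.6% of all genes tested, 5 of them ER genes (Ern1, Hspa5, Sil1, Dnajb9 and Dnajb11) and 4 in the ATF4 branch (Ppp1r15a, Phgdh, Psat1 and Mthfd2). A missed threshold with 3 libraries a group does not show that a gene was equal in the groups. In bulk RNA of sorted cells, fewer cells of a type and less RNA per cell cannot be told apart.

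The medians of the branches differed in size. Over the 23 ER genes the median log2 change was −0.16, with 17 of 23 negative, and over the 10 tested ATF4 branch genes it was −0.42, with 7 of 10 negative, beside 0.03 over all genes tested. When DSS replicate 1 was left out they were −0.08 and −0.12, beside 0.13 over all genes tested in that fit. The ATF4 branch median thus leaned on that library. The ER median rose along with the median of all genes, and in that fit both branch medians stayed below it. By role, the signs were as follows, beside 5715 of 12187 negative over all genes tested. Within the ER genes the sensors and their transcription factors (4 of 4), the HSP70 and HSP90 class chaperones (4 of 4) and the lectin chaperones and isomerases (5 of 5) were all negative, while the 3 secreted or cofactor targets were positive in 3 of 3. Within the ATF4 branch the 5 enzymes of asparagine, serine and one-carbon synthesis were negative in 5 of 5, and the transcription factors and feedback genes were positive in 3 of 4. Without DSS replicate 1 the negative counts were 2 of 4, 3 of 4 and 5 of 5 for those ER groups and 4 of 5 for the enzymes, and the positive counts were 2 of 3 for the secreted or cofactor targets and 2 of 4 for the transcription factors and feedback genes. Since no gene passed the test, these are signs and not calls.

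**Figure D1:**
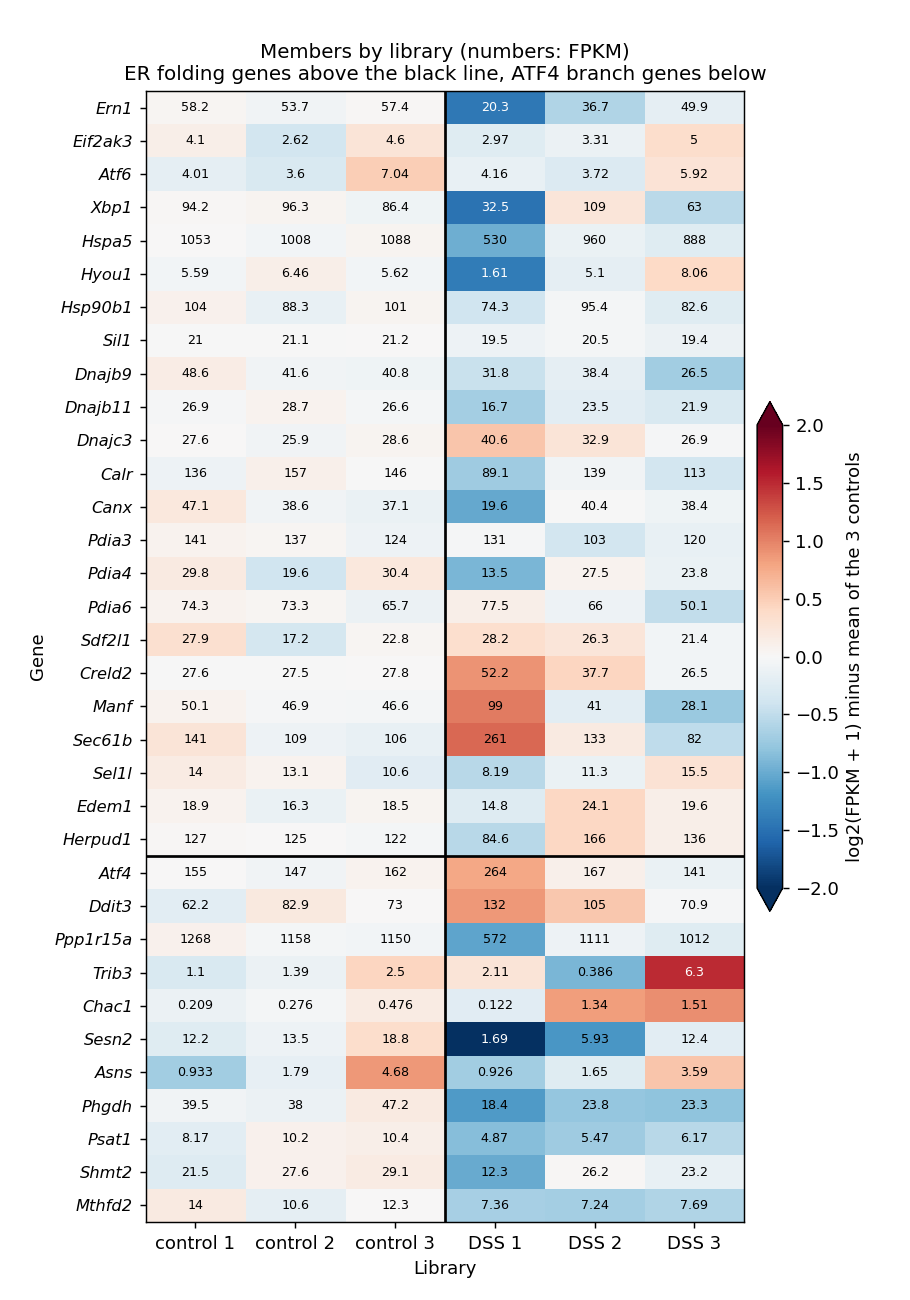
Each cell gives the FPKM of 1 of the 34 genes (rows, ER genes above the black line and ATF4 branch genes below it) in 1 of the 6 libraries (columns), and its colour gives log2(FPKM + 1) minus the mean of the 3 controls, red higher and blue lower. DSS replicate 1 holds the deepest blue cells, such as Sesn2 at 1.69 and Hyou1 at 1.61, and also red cells for Manf at 99.0 and Sec61b at 261.

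**Figure D2:**
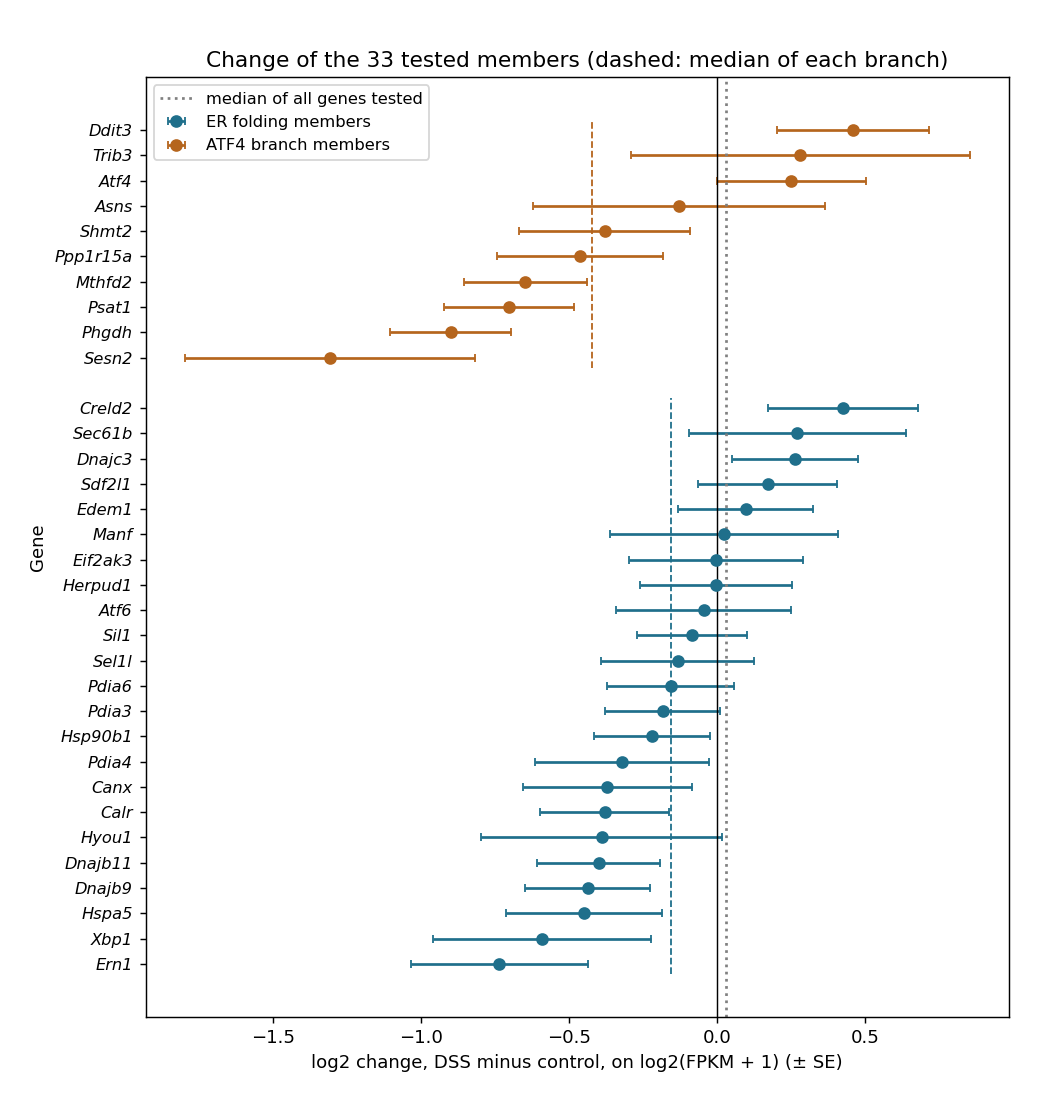
Points are log2 changes of FPKM + 1, DSS minus control, with bars of ± 1 SE from limma, for the 33 tested genes (vertical axis, sorted within each branch). The dashed lines are the branch medians (−0.16 for the ER genes and −0.42 for the ATF4 branch), the dotted line is the median of all genes tested (0.03), and the range runs from Sesn2 at −1.31 to Ddit3 at 0.46.

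Among the sensors and their transcription factors, Ern1 was the one whose groups did not overlap. It encodes IRE1α (chromosome 11, GRCm38, 106394650 to 106487852, − strand, 22 merged exons). Its FPKM was 58.2, 53.7 and 57.4 in control replicates 1, 2 and 3, and 20.3, 36.7 and 49.9 in DSS replicates 1, 2 and 3. The controls lay close together and the DSS libraries were spread, with DSS replicate 1 the lowest and DSS replicate 3 near the controls. The means were 56.4 ± 2.41 and 35.6 ± 14.9 (SD, n = 3 libraries a group). The log2 change was −0.74 ± 0.30 SE (limma, unadjusted p = 0.0342, adjusted p = 0.477), and −0.39 without DSS replicate 1.

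Xbp1 encodes the transcription factor that IRE1α activates by splicing (chromosome 11, 5520659 to 5525893, + strand, 4 merged exons), and gene-level FPKM does not separate its spliced from its unspliced mRNA. It stood at 94.2, 96.3 and 86.4 in the controls and at 32.5, 109 and 63.0 in DSS replicates 1 to 3. DSS replicate 2 was the highest library of all and DSS replicate 1 the lowest, so the groups overlapped (log2 change −0.59 ± 0.37 SE, limma adjusted p = 0.718, and −0.15 without DSS replicate 1). Eif2ak3, which encodes PERK, was weakly expressed at 2.62 to 4.60 in control and 2.97 to 5.002 in DSS libraries. Its group means were 3.77 ± 1.03 and 3.76 ± 1.09 (SD, n = 3 libraries a group). It shares 485 exonic bases with a gene on the opposite strand, which these unstranded libraries cannot separate. Atf6, the sensor cleaved in the Golgi, was at 3.60 to 7.04 and 3.72 to 5.92, with its highest values in replicate 3 of each group.

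Hspa5 was the most abundant ER gene. It encodes BiP, the HSP70 chaperone that holds the sensors inactive (chromosome 2, 34771970 to 34777547, + strand, 7 merged exons), and its mean level per length exceeded 99.3% of the genes tested. Its FPKM was 1053, 1008 and 1088 in the controls and 530.4, 959.8 and 888 in DSS replicates 1, 2 and 3. Every DSS library lay below every control, by a smaller margin in DSS replicates 2 and 3 than in DSS replicate 1. The means were 1049.5 ± 40.1 and 793 ± 230.1 (SD, n = 3 libraries a group). The log2 change was −0.45 ± 0.26 SE (limma adjusted p = 0.696), and −0.18 without DSS replicate 1.

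The partners of BiP showed smaller or less even differences. Hsp90b1, the ER HSP90 (GRP94), was at 88.3 to 104 in control and 74.3 to 95.4 in DSS libraries, and shares 415 exonic bases with a gene on the opposite strand. Sil1, a nucleotide exchange factor of BiP, was at 21.02, 21.09 and 21.20 in the controls and 19.54, 20.55 and 19.42 in DSS replicates 1 to 3. Its groups did not overlap, yet its log2 change was only −0.09 (limma adjusted p = 0.929), and 196 of its exonic bases are shared with genes on the opposite strand. Hyou1, another exchange factor and chaperone, was at 5.59, 6.46 and 5.62 in the controls and 1.61, 5.10 and 8.06 in DSS replicates 1 to 3, which spans both sides of the controls. Its log2 change of −0.39 was 0.11 without DSS replicate 1.

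The J proteins, which pass clients to BiP, did not move as one. Dnajb9 (ERdj4, which also represses IRE1α) was at 48.6, 41.6 and 40.8 in the controls and 31.8, 38.4 and 26.5 in DSS replicates 1 to 3. Here DSS replicate 3 was the lowest library and the groups did not overlap. The means were 43.7 ± 4.28 and 32.3 ± 6.00 (SD, n = 3 libraries a group), with a log2 change of −0.44 ± 0.21 SE (limma, unadjusted p = 0.0654, adjusted p = 0.599). Dnajb11 (ERdj3) was at 26.9, 28.7 and 26.6 in the controls and 16.7, 23.5 and 21.9 in DSS replicates 1 to 3, again without overlap (log2 change −0.40 ± 0.21 SE, limma adjusted p = 0.639, and −0.26 without DSS replicate 1). Dnajc3, known as P58IPK and as an inhibitor of the eIF2α kinases, was on the other side at 25.9 to 28.6 in control and 26.9 to 40.6 in DSS libraries, with DSS replicate 1 the highest (log2 change 0.26, limma adjusted p = 0.805, and 0.12 without that library).

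The lectin chaperones and protein disulfide isomerases, which fold glycoproteins and form their disulfide bonds, overlapped between the groups in 5 of 5 cases. Overlap was the common case, since 6.35% of all genes tested lay higher and 9.6% lower in every DSS library. Calr (calreticulin) was at 136, 157 and 146 in the controls and 89.1, 139 and 113 in DSS replicates 1 to 3, a log2 change of −0.38 (limma adjusted p = 0.682), or −0.22 without DSS replicate 1. Canx (calnexin) was at 37.1 to 47.1 in control and at 19.6, 40.4 and 38.4 in DSS replicates 1 to 3. Only DSS replicate 1 lay outside the control range of Canx, and its log2 change of −0.37 was −0.05 without that library. Pdia3, the isomerase that works with these lectins, was at 124 to 141 and 103 to 131, Pdia4 at 19.6 to 30.4 and 13.5 to 27.5, and Pdia6 at 65.7 to 74.3 and 50.1 to 77.5. Their log2 changes were −0.18, −0.32 and −0.16, and −0.26, −0.03 and −0.30 without DSS replicate 1.

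The small secreted or cofactor targets overlapped between the groups in 3 of 3 cases, as most genes tested did. Creld2, a secreted ER stress protein, was at 27.6, 27.5 and 27.8 in the controls and 52.2, 37.7 and 26.5 in DSS replicates 1, 2 and 3. The controls were almost identical, DSS replicates 1 and 2 lay above them and DSS replicate 3 below. The means were 27.6 ± 0.133 and 38.8 ± 12.9 (SD, n = 3 libraries a group), with a log2 change of 0.42 ± 0.25 SE (limma adjusted p = 0.704), and of 0.19 without DSS replicate 1. Manf, a secreted survival factor, had the same order, at 46.6 to 50.1 in the controls and 99.0, 41.0 and 28.1 in DSS replicates 1 to 3, and a log2 change of 0.02, or −0.48 without DSS replicate 1. It shares 312 exonic bases with genes on the opposite strand. Sdf2l1, a cofactor that keeps J proteins soluble, was at 17.2 to 27.9 and 21.4 to 28.2, with a log2 change of 0.17 that turned to −0.03 with the length trend removed.

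Genes of translocation and ER-associated degradation overlapped in 4 of 4 cases, as most genes tested did. Sec61b, a subunit of the translocation channel, was at 141, 109 and 106 in the controls and 261, 133 and 82.0 in DSS replicates 1 to 3, the widest spread of the 4. Its log2 change of 0.27 was −0.17 without DSS replicate 1. Herpud1, a membrane protein of the degradation machinery, was at 122 to 127 in the controls and 84.6, 166 and 136 in DSS replicates 1 to 3. Its controls lay within a narrow band and its DSS libraries on both sides of it (log2 change −0.01, limma adjusted p = 0.998). Sel1l, the adaptor of the ubiquitin ligase HRD1, was at 10.6 to 14.0 and 8.19 to 15.5. Edem1, which directs misfolded glycoproteins to degradation, was at 16.3 to 18.9 and 14.8 to 24.1.

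In the ATF4 branch the transcription factors had positive log2 changes that did not pass. Atf4 itself (chromosome 15, 80255184 to 80257541, + strand, a single exon) was at 155, 147 and 162 in the controls and 264, 167 and 141 in DSS replicates 1, 2 and 3. DSS replicate 1 was far above the rest and DSS replicate 3 below all controls, with a log2 change of 0.25 ± 0.25 SE (limma adjusted p = 0.845), and of −0.01 without DSS replicate 1. Ddit3, which encodes CHOP (chromosome 10, 127290774 to 127296288, + strand, 4 merged exons), was at 62.2, 82.9 and 73.0 in the controls and 132, 105 and 70.9 in DSS replicates 1 to 3. DSS replicates 1 and 2 lay above all controls and DSS replicate 3 within their range. The means were 72.7 ± 10.3 and 103 ± 30.8 (SD, n = 3 libraries a group), with a log2 change of 0.46 ± 0.26 SE (limma adjusted p = 0.672), and of 0.25 without DSS replicate 1. Ddit3 shares 81 exonic bases with genes on the opposite strand, Mars among them.

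Ppp1r15a was the most abundant gene of all 34. It encodes GADD34, the phosphatase subunit that restores eIF2α (chromosome 7, 45522916 to 45526268, − strand, 2 merged exons), and its mean level per length exceeded 99.4% of the genes tested. It was at 1268, 1158 and 1150.2 in the controls and 572, 1111 and 1012 in DSS replicates 1 to 3. Every DSS library lay below every control, DSS replicate 2 only just, and DSS replicate 1 was by far the lowest. The means were 1192 ± 66.2 and 898 ± 287 (SD, n = 3 libraries a group), with a log2 change of −0.46 ± 0.28 SE (limma adjusted p = 0.709), and of −0.17 without DSS replicate 1. Trib3, a pseudokinase that restrains ATF4 and CHOP, was weak and scattered at 1.10, 1.39 and 2.501 in the controls and 2.11, 0.386 and 6.30 in DSS replicates 1 to 3.

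Chac1, a glutathione-degrading enzyme, was near the limit of detection. It had 8, 8 and 10 fragments in the controls and 3, 42 and 25 in DSS replicates 1 to 3, or 0.209, 0.276 and 0.476 FPKM against 0.122, 1.34 and 1.51. DSS replicates 2 and 3 were above all controls and DSS replicate 1 below them. Sesn2, which encodes the leucine sensor and mTORC1 inhibitor sestrin 2 (chromosome 4, 132492032 to 132510501, − strand, 10 merged exons), had the most negative log2 change of the 33. It was at 12.2, 13.5 and 18.8 in the controls and 1.69, 5.93 and 12.4 in DSS replicates 1 to 3. DSS replicate 3 reached the lowest control, so the groups overlapped, and DSS replicate 1 had 88 fragments. The means were 14.9 ± 3.52 and 6.68 ± 5.41 (SD, n = 3 libraries a group), with a log2 change of −1.31 ± 0.49 SE (limma, unadjusted p = 0.0241, adjusted p = 0.424). Leaving out DSS replicate 1 gave −0.69.

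Of the 5 enzymes of asparagine, serine and one-carbon synthesis, Phgdh, Psat1 and Mthfd2 did not overlap between the groups. They lay lower in every DSS library, against 9.6% of all genes tested. Phgdh encodes phosphoglycerate dehydrogenase, the first and committed step from glycolysis to serine (chromosome 3, 98313170 to 98339990, − strand, 13 merged exons). It was at 39.5, 38.0 and 47.2 in the controls and 18.4, 23.8 and 23.3 in DSS replicates 1, 2 and 3. The highest DSS library lay well under the lowest control. The means were 41.5 ± 4.95 and 21.8 ± 3.01 (SD, n = 3 libraries a group), 1.904-fold lower in DSS, with a log2 change of −0.90 ± 0.21 SE (limma, unadjusted p = 0.00147, adjusted p = 0.147). Without DSS replicate 1 the log2 change was −0.79 and the adjusted p 0.0141 by limma, the single case in 16 other settings in which any of the 33 passed. In that fit 144 genes were higher and 291 lower, against 9 and 18 with all libraries.

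Psat1, which encodes the aminotransferase of the next step of serine synthesis (chromosome 19, 15904678 to 15947337, − strand, 12 merged exons), separated too. It was at 8.17, 10.2 and 10.4 in the controls and 4.87, 5.47 and 6.17 in DSS replicates 1 to 3, without overlap. The log2 change was −0.70 ± 0.22 SE, 1.75-fold lower by the means (limma, unadjusted p = 0.00975, adjusted p = 0.308). Mthfd2, a mitochondrial folate enzyme (chromosome 6, 83305691 to 83325908, − strand, 10 merged exons), was at 14.0, 10.6 and 12.3 in the controls and 7.36, 7.24 and 7.69 in DSS replicates 1 to 3. Its DSS libraries lay close together, all below the controls. The means were 12.3 ± 1.67 and 7.43 ± 0.234 (SD, n = 3 libraries a group), 1.65-fold lower in DSS, with a log2 change of −0.65 ± 0.21 SE (limma, unadjusted p = 0.0113, adjusted p = 0.330).

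The other enzymes of the group overlapped. Shmt2, which splits serine in mitochondria to feed the folate cycle, was at 21.5, 27.6 and 29.1 in the controls and 12.3, 26.2 and 23.2 in DSS replicates 1 to 3. DSS replicates 2 and 3 lay within the control range (log2 change −0.38, limma adjusted p = 0.787, and −0.06 without DSS replicate 1). Asns, asparagine synthetase, was at 0.933, 1.79 and 4.68 in the controls and 0.926, 1.65 and 3.59 in DSS replicates 1 to 3. Its 2 highest values were in the libraries of replicate 3, whose olfactory receptor genes averaged 0.583 and 0.962, and the part of that background in Asns, Trib3 and Chac1 was not tested.

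**Figure D3:**
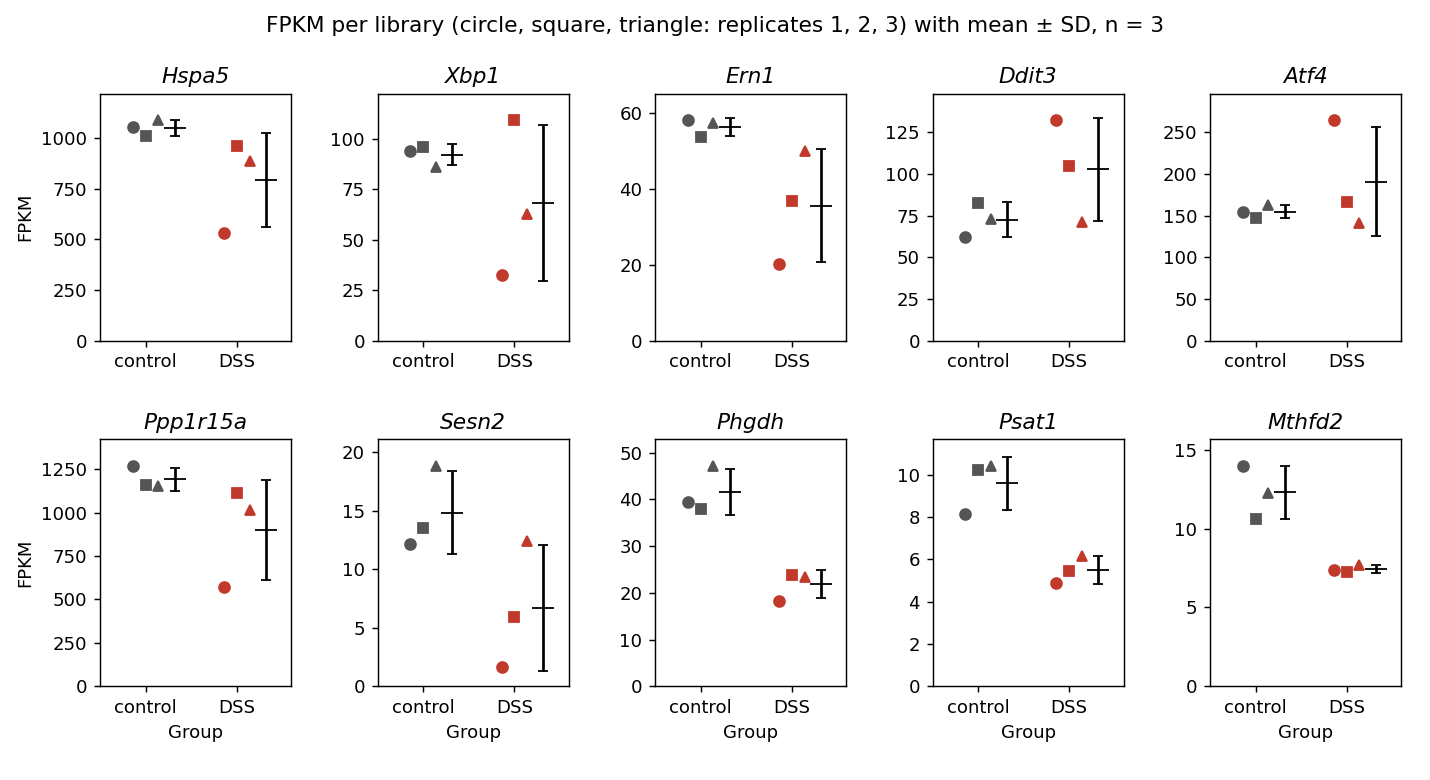
Points are FPKM per library (vertical axes, from 0) in control and DSS (horizontal axes) for 10 of the genes, with circles, squares and triangles for replicates 1, 2 and 3 and bars for the mean ± SD of 3 libraries. All DSS libraries lie below all controls for Phgdh (18.4 to 23.8 against 38.0 to 47.2), Psat1, Mthfd2, Hspa5, Ern1 and Ppp1r15a. DSS replicate 1 (circle) is the lowest library in Hspa5, Xbp1, Ern1, Ppp1r15a, Sesn2, Phgdh and Psat1, and the highest in Atf4 and Ddit3.

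DSS replicate 1 was the lowest library for 12 of 23 ER genes and 7 of 11 ATF4 branch genes, beside 37.1% of all genes tested, and the highest for 6 and 2 of them, beside 18.9%. DSS replicate 3 was the highest for 3 ER genes and 2 of the ATF4 branch, beside 41.6%. Its deviation from the mean of the 6 libraries went with the length of the gene. Over all genes tested Spearman's rho with length was −0.29 in DSS replicate 1 and 0.04 to 0.20 in the other 5, and over the 33 genes it was −0.43 in DSS replicate 1, 0.52 in DSS replicate 3, −0.16 in DSS replicate 2 and 0.20 to 0.29 in the controls. These are descriptions over genes that share a library. In the shortest of 4 equal classes of gene length (up to 1730.0 bases) the median log2 deviation of DSS replicate 1 was 0.23, and in the other 3 classes −0.33 to −0.21. Sec61b, high in this library, had a length of 732 bases, while Hspa5 had 3720.0, Ern1 7030.0 and Xbp1 2150.0, and all 3 were lowest in it. Others did not follow length. Dnajc3 (5200.0 bases), Manf (2270.0) and Pdia6 (2200.0) were longer than Xbp1 and had DSS replicate 1 as their highest library. With the length trend removed within each library, an alternative chosen after seeing the data, 0 of the 33 passed by limma and the same 5 had an unadjusted p under 0.05. The log2 changes of Sec61b and Sdf2l1 then turned to −0.07 and −0.03.

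**Figure D4:**
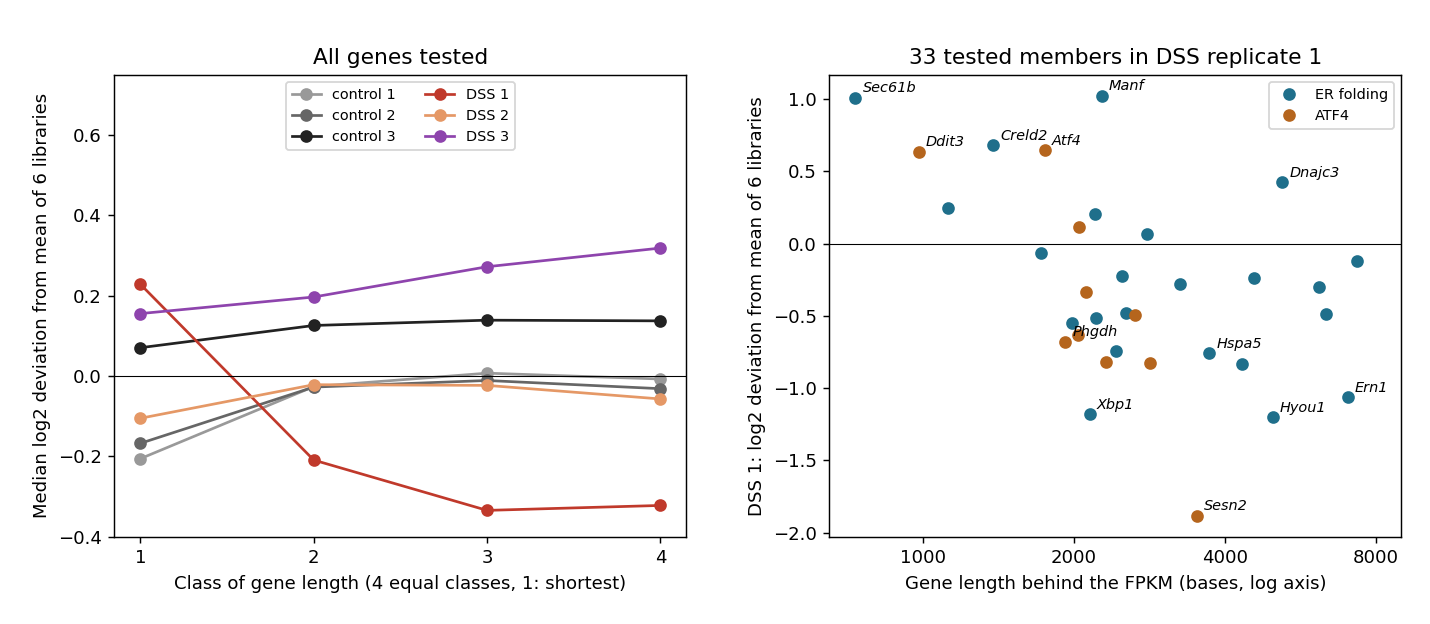
The left panel gives, for each library, the median log2 deviation from the mean of the 6 libraries (vertical axis) in 4 equal classes of gene length (horizontal axis, shortest first), and the right panel gives the deviation in DSS replicate 1 of each of the 33 tested genes against its length in bases on a log axis. DSS replicate 1 goes from 0.23 in the shortest class to −0.33 in the third, and the short gene Sec61b (732 bases) lies above 0 there while Ern1 and Sesn2 lie below.

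A wider list of ER folding, translocation and degradation genes was spread around 0. Of 42 listed, 41 were tested, 20 with a positive and 21 with a negative log2 change, a median of −0.02 and none past the limma threshold (also 0 by voom). At an unadjusted p under 0.05, 1 was higher and 3 lower by limma, against 3.57% and 5.42% of all genes tested. Derl3, of the derlin family that draws proteins out of the ER, was at 0.518, 0 and 0.354 FPKM in the controls and 4.59, 8.99 and 2.40 in DSS replicates 1 to 3, with no overlap (log2 change 2.18 ± 0.46 SE, limma adjusted p = 0.132). Derl3 is also a plasma cell marker, and the leading plasma cell markers Jchain and Mzb1 had higher values in every DSS library than in any control. Of the 9 plasma cell markers, Cd79a and Derl3 did too, Prdm1 was lower in every DSS library, and Sdc1, Tnfrsf17, Cd79b and Txndc5 overlapped, so the list did not move as one (these 6 were named after their values were seen). Jchain, the joining chain of secreted immunoglobulin, was at 8.99 to 19.2 in control and at 163.5, 146.5 and 27.8 in DSS replicates 1 to 3. Mzb1 was at 0.708 to 4.27 in control and at 101.7, 56.8 and 7.37 in DSS replicates 1 to 3. DSS replicate 3 was the lowest DSS library for Derl3, Jchain, Mzb1, Creld2, Manf and Sec61b. The same held for Atf4, Ddit3, Pdia6, Dnajc3, Sdf2l1, Dnajb9, Sil1 and Hspb1, which were picked after their values were seen. Of the other plasma cell markers, Cd79a, Cd79b and Txndc5 also had DSS replicate 3 as their lowest DSS library. Sdc1, Tnfrsf17 and Prdm1 had it as their highest. The part of plasma cell RNA in these values was not tested.

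The 3 genes lower at an unadjusted p under 0.05 were Ssr3, a subunit of the translocon-associated complex (64.8 ± 11.9 and 37.1 ± 7.13 FPKM, log2 change −0.79, limma adjusted p = 0.247), Hspa13, an ER HSP70 relative (9.07 ± 1.75 and 5.32 ± 1.51, −0.68, adjusted p = 0.430), and Spcs3, a signal peptidase subunit (80.0 ± 9.42 and 56.7 ± 7.39, −0.49, adjusted p = 0.483). In all 3 every DSS library lay below every control, and they had the smallest p of the list after Derl3. Of the 41 genes tested, 7 lay below in this way, against 9.6% of all genes tested. For 2 of the 41 every DSS library lay above every control, against 6.35%.

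In a wider list of integrated stress response genes none passed. Of 50 listed, 42 were tested, with none past the limma threshold (also 0 by voom). Of these 16 had a positive and 26 a negative log2 change, beside 5715 of 12187 negative over all genes tested. Their median was −0.11, beside 0.03. At an unadjusted p under 0.05, 1 was higher and 3 lower by limma, against 3.57% and 5.42% of all genes tested. Slc7a1, which imports arginine and lysine, was at 39.7, 39.1 and 31.0 in the controls and 8.24, 16.4 and 18.4 in DSS replicates 1 to 3 (log2 change −1.35 ± 0.29 SE, limma adjusted p = 0.132). Every DSS library of Slc7a1 lay below every control, as for 7 of the 42, against 9.6% of all genes tested. For 1 of the 42 every DSS library lay above, against 6.35%. Slc3a2, the heavy chain of several amino acid transporters, had means of 500.6 ± 25.9 and 306 ± 23.0 FPKM (−0.71, limma adjusted p = 0.220), and Eprs, which charges tRNAs with glutamate and proline, 122 ± 9.10 and 69.7 ± 4.34 (−0.80, adjusted p = 0.156). Eif4ebp1, which encodes a brake on cap-dependent translation, went the other way at 8.499 to 9.135 in control and 13.7 to 17.3 in DSS libraries (0.75, limma adjusted p = 0.213). Of the 12 tRNA synthetases in the list, 8 had a negative log2 change, beside 5715 of 12187 genes tested. Without DSS replicate 1, Slc7a1 (adjusted p = 0.00521), Eprs (0.00791) and Slc3a2 (0.0114) were among 5 of the list that passed by limma. The others, Ddit4 and Wars1, went the other way, with positive log2 changes of 0.51 and 0.49 when all libraries were kept. They were named after their values were seen. Over all 12530 genes in that fit, 144 passed as higher and 291 as lower.

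A list of heat shock genes of the cytosol, with the mitochondrial chaperonins Hspd1 and Hspe1 and the transcription factors Hsf1 and Hsf2, held the only genes of these lists that passed. All 22 listed were tested, 18 with a positive log2 change, beside 6472 of 12187 over all genes tested. Their median was 0.65, beside −0.16 for the ER genes. At an unadjusted p under 0.05, 11 were higher and 0 lower by limma, against 3.57% and 5.42% of all genes tested. In 12 of the 22 every DSS library lay above every control and in 0 below, against 6.35% and 9.6%. This list was chosen with earlier results of these data known. Hspb1, a small heat shock protein, and Dnajb1, an HSP40, passed as higher in DSS (log2 changes 2.31 ± 0.33 and 1.52 ± 0.23 SE, limma adjusted p = 0.0426 for both), at levels given by 204 to 210.0 against 601 to 1677 FPKM for Hspb1 and 833 to 1045 against 2221 to 2971 for Dnajb1. With the replicate number as a block Hspb1 passed and Dnajb1 did not (limma adjusted p = 0.0861). Neither passed after median-of-ratios scaling, without the filter on low values, without the trend, with the length trend removed, or without any 1 of the controls or DSS replicate 2. With DSS replicate 1 left out, 13 of the 22 passed, while 144 of 12530 genes in that fit passed as higher and 291 as lower. The difference between this list and the ER genes was not tested.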

How the data were processed

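RNA sequencing of sorted colonic ILC2s gave 3 control and 3 DSS libraries, grouped by their titles. RNA was extracted with TRIzol, and paired-end libraries were made with SMART-Seq HT and Nextera XT kits, which do not mark the strand, per the labels' protocols. Reads were handled with cutadapt 1.9, HISAT2 2.2.1 and build mm10, per the submitters' processing notes. How fragments were counted is not given in the sources used here, nor are the annotation and lengths. Values deposited by the authors are FPKM, which divide fragments by gene length and depth, so short or weak genes rest on few fragments. Whole fragments were recovered from the steps of the values as the smallest whole numbers that fit (tolerance 0.001). Such numbers were found for 22701 of 22701 genes above 0, or 100.0%, which does not show that each is right. A factor common to all libraries goes unseen, so fragments and the gene lengths derived from them can be too low. The shortest derived length among the genes tested was 6.86 bases. The depths so found set the precision of the weak genes.

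The main test was limma 3.58.1 (two-sided, run in R 4.3.3 with lmFit, then eBayes using a mean-variance trend) on log2(FPKM + 1). Genes needed a mean FPKM of 1 or more, and p-values were adjusted by Benjamini-Hochberg with a threshold of 0.05. The log2 changes understate those of weak genes. The recovery and the test were tested on simulated data. Alternatives were pseudocounts of 0.1 and 5, no filter and a mean FPKM of at least 5, median-of-ratios scaling, the replicate block, no trend, voom, and omission of each library. Omission of both replicates 3 and removal of the length trend (loess, span 0.5) were chosen after seeing the data.

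The 34 genes and the other lists were chosen with earlier results of these data known. All 34 are named, as are the genes of each other list that passed or, where none did, up to 4 with the smallest p. Cell type markers are given as sums, and singly only where at 0 or among the 2 highest of their list. The main test used the group alone, without pairs, since the labels do not say that a replicate number is shared. Only the replicate block took the numbers as pairs. Deviations from the group means correlated at 0.189, 0.262 and 0.545 between libraries of the same number. Those of control replicate 1 and DSS replicate 2 correlated at 0.345, so the pairs are uncertain. Exon coordinates are from GENCODE M21 (GRCm38, 1-based), and promoters from RefSeq (GRCm38.p6). Python 3.11.15, pandas 2.3.3 and matplotlib 3.10.9 were also used.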

Additional observations from a re-analysis of the deposited data

How the results depend on the processing

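The replicate block left the count of the 33 genes that passed at 0 and changed no call among them, but reduced the heat shock genes that passed from 2 to 1. Of the 33, 20 kept the sign of their log2 change in all 16 other settings and 13 did not. Leaving out 1 library at a time gave 0 to 1 of the 33 as lower (0 to 1 in the ATF4 branch, Phgdh), 0 to 5 of the other integrated stress response genes, 0 to 13 of the heat shock genes and an ATF4 branch median of −0.61 to −0.12. It gave log2 changes of −0.19 to 0.12 for Eif2ak3, −0.21 to 0.20 for Atf6, −0.79 to 0.11 for Hyou1, −0.30 to 0.010 for Pdia6, −0.0061 to 0.33 for Sdf2l1, −0.48 to 0.41 for Manf, −0.17 to 0.66 for Sec61b, −0.35 to 0.077 for Sel1l, −0.064 to 0.27 for Edem1, −0.22 to 0.27 for Herpud1, −0.012 to 0.44 for Atf4, −0.33 to 0.87 for Trib3 and −0.48 to 0.30 for Asns. Median-of-ratios scaling gave 0.020 for Eif2ak3 and 0.028 for Herpud1, and voom −0.19 for Trib3. Of the settings chosen after seeing the data, removing the length trend gave 0.053 for Eif2ak3, −0.030 for Sdf2l1 and −0.074 for Sec61b, and leaving out both replicates 3 gave 0.039 for Atf6 and −0.11 for Trib3. The heat shock genes that passed numbered 1 with a pseudocount of 0.1, 0 without the filter, 0 after median-of-ratios scaling, 0 without the trend, 1 without both replicates 3 and 0 with the length trend removed. Apart from the length trend, which removes what goes with length, the cause was not tested. Over all genes, 9 higher and 18 lower became 5 and 4 after median-of-ratios scaling, 12 and 10 with the block, 3 and 1 without the trend, and 144 and 291 without DSS replicate 1. Depth limits Chac1, Trib3 and Asns, with 3 to 129 fragments a library.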
